A study of Homo sapiens with 12 samples.

Results

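The 35 genes described here encode laminins, collagens, other proteins of the extracellular matrix and enzymes that modify collagen, and they were taken as a named list. Each of the 35 matched 1 Ensembl identifier among the 62702 genes with values, and each of them was among the 17677 genes tested. By role the list holds 5 laminin chains, 7 collagens of the basement membrane and its anchors, 4 proteins that link or fill the basement membrane, 7 other collagens, 4 adhesive and matricellular glycoproteins, 4 microfibril proteins and 4 enzymes.

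RNA was measured in MCF10AT cells, the Ras-transformed derivative of the human breast epithelial line MCF10A. In the deleted PRL and deleted untreated groups the cells carried hPRLrL together with an hPRLrI from which the I-tail had been removed, and in the intact PRL and intact untreated groups they carried hPRLrL with the whole hPRLrI. hPRLrL and hPRLrI are the long and the intermediate form of the human prolactin receptor. All cells were kept for 24 h without serum, and the PRL groups then had 2 h of prolactin (PRL) at a dose of 250 ng/ml. The comparisons ask how PRL, the loss of the I-tail and their combination bear on the transcriptome. Each group has 3 libraries, which the labels call biological replicates. The labels do not say whether each receptor pair is 1 clone, and p-values measure the spread between these libraries.

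Basement membranes are thin sheets on which epithelial cells rest. Laminin trimers and a type IV collagen network form them, and nidogens, perlecan and agrin join and fill both. Basal cells of the breast lie on this sheet and anchor to it through hemidesmosomes, laminin-332 and the anchoring fibrils of type VII collagen. Interstitial collagens, fibronectin and fibrillin microfibrils lie beyond it, and prolyl and lysyl hydroxylases and lysyl oxidases shape collagen inside and outside the cell.

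The 12 libraries held 36120808 to 57324865 counts, and PRLR, the gene of both receptor forms, stood at 3099 to 3959 CPM (TMM-scaled counts relative to library size) in all of them. A gene count does not show the I-tail. The titles fall into 3 runs, titles 1 to 4, 5 to 8 and 9 to 12, each with 1 library of every group, and the labels do not say what the runs are. Library 1, 2 or 3 of a group lies in run 1, 2 or 3. Genes with a count numbered 24477 to 25200 in run 1, 19073 to 23119 in run 2 and 21761 to 23895 in run 3, with the lowest number in intact PRL library 2. Among keratins of epithelium and of basal breast cells KRT5 stood at 310 to 3331 CPM, KRT8 at 864 to 2324, KRT14 at 11.2 to 96.3 and KRT19 at 0.422 to 1.34 CPM, and EPCAM stood at 1.16 to 5.33 CPM. Summed over their lists, fibroblast markers ranged from 480 to 618 CPM in deleted PRL, 435 to 578 in deleted untreated, 427 to 478 in intact PRL and 424 to 513 CPM in intact untreated libraries. Most of that was DCN and COL1A1, while the fibroblast genes COL1A2, LUM and PDGFRA stayed under 1 CPM. Endothelial markers summed to at most 3.30 CPM.

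The matrix genes together made up 1.88 ± 0.30% of counts in deleted PRL, 2.07 ± 0.34% in deleted untreated, 1.82 ± 0.16% in intact PRL and 1.87 ± 0.22% in intact untreated libraries (SD, n = 3 each). FN1, the gene of fibronectin, which binds integrins and collagens, supplied 30.2 to 52.4% of that amount. Per kilobase of exon FN1 averaged 437 CPM and ranked 75 among 17059 tested genes with a length. LAMB3 (228 CPM per kilobase), AGRN (191) and LAMA5 (140) followed. At the other end NID1, SPARC, COL18A1, COL6A2 and COL5A1 stayed under 10 CPM in every library. Of the 35 genes, 26 had at least 1000 counts in each library.

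**Figure D1:**
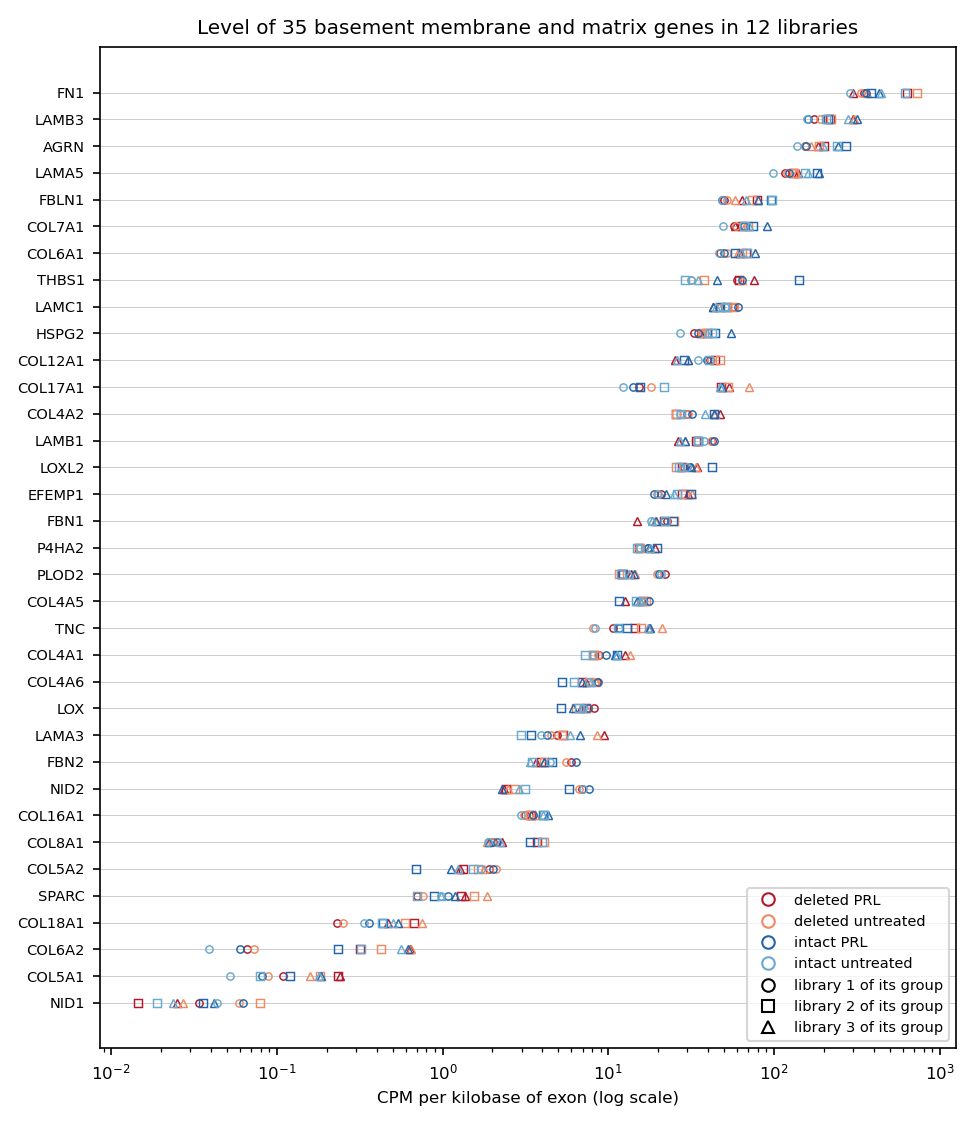
Level of each of the 35 genes in CPM per kilobase of exon (log axis), with 1 symbol per library, coloured by group and shaped by library number. FN1 is highest at a mean of 437 and NID1 lowest at 0.0387, and the 4 groups overlap in most genes while the library shapes often stand apart, as for PLOD2 and COL6A2.

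No matrix gene passed the test after PRL, with the I-tail deleted or intact. Averaged over both receptor pairs, 0 of 35 were called at an adjusted p under 0.05 in edgeR's quasi-likelihood test with Benjamini-Hochberg adjustment over all tested genes, against 0.119% of all tested genes. DESeq2 called 1, THBS1, against 0.487% of all tested genes, and limma-voom called 0, against 0.119%. Without a count filter edgeR called 1 for the average, against 0.366% of all genes, and 1 with the intact I-tail, against 0.136%, in both cases THBS1. At an unadjusted p under 0.05 the list held 1 gene, again THBS1, against 3.81% of all tested genes. With the I-tail deleted the calls were 0 of 35 against 0.017% of all tested genes, and with it intact 0 of 35 against 0.017%. The counts at an unadjusted p under 0.05 were 0 with the deleted I-tail against 1.79% of all tested genes, and 1 with the intact I-tail against 2.55%. The median SE of the 35 log2 fold changes was 0.18 for the average and 0.26 within a receptor pair.

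THBS1 (ENSG00000137801, GRCh38 chromosome 15, 39581079 to 39599466, plus strand in GENCODE 29) encodes thrombospondin-1, a matricellular glycoprotein that binds cells, matrix and latent TGF-beta. Its level was 545, 561 and 698 CPM in deleted PRL libraries 1 to 3, against 289, 346 and 584 CPM in deleted untreated libraries. In the intact cells it was 588, 1293 and 412 CPM with PRL, against 291, 265 and 320.3 CPM untreated. All 3 intact PRL libraries lay above all 3 intact untreated ones, and with the deleted I-tail deleted untreated library 3 lay above deleted PRL libraries 1 and 2. Means were 602 ± 84.1 in deleted PRL and 407 ± 156 CPM in deleted untreated libraries, and 764 ± 466 in intact PRL and 292 ± 27.7 CPM in intact untreated libraries (SD, n = 3 each).

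The averaged PRL effect on THBS1 was a log2 fold change of 0.98 ± 0.26 (SE), with an edgeR p of 0.00201 and an adjusted p of 0.404. It was 0.57 ± 0.36 with the deleted I-tail (adjusted p = 1) and 1.39 ± 0.36 with the intact one (adjusted p = 1). The difference between these was -0.82 ± 0.51, and -0.20 without intact PRL library 2 (adjusted p = 1 for both, edgeR interaction). Within a title run the PRL library stood above the untreated one in 6 of 6 pairs, by 0.26 to 2.29 on the log2 scale. Pairs were counted for the 35 genes only, of which 3 reached 6 of 6, so no share of all tested genes can be given. Intact PRL library 2, whose value of 1293 CPM is the highest of the 12, is also the library with the fewest detected genes. Without it the average was 0.68 (adjusted p = 0.613, edgeR) and the effect with the intact I-tail 0.78 (adjusted p = 1). With a term for the title runs the average was 0.97 and the edgeR adjusted p 0.0638. That fit called 0 of 35 matrix genes against 1.12% of all tested genes. DESeq2 gave an adjusted p of 0.0422 for the average. Without a count filter edgeR gave 0.98 ± 0.16 and an adjusted p of 1.09e-06, so the call depends on the filter. The estimate hardly moved, and the call without the filter rests on an SE of 0.16 in place of 0.26. The intact PRL libraries themselves ran from 412 to 1293 CPM. In bulk RNA, a change in the share of cells expressing a gene and a change in its RNA per cell cannot be told apart.

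**Figure D2:**
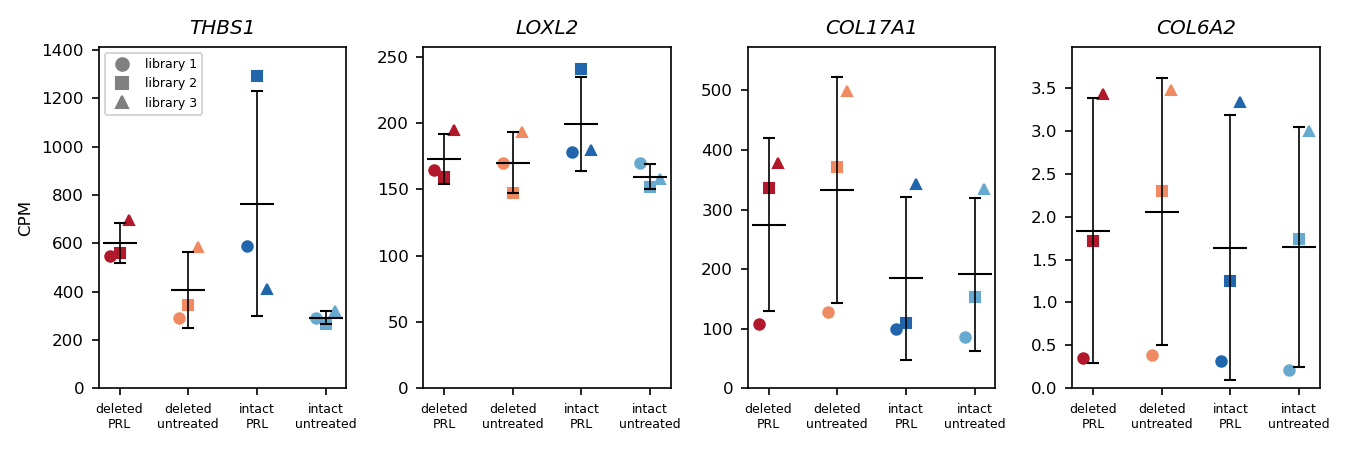
CPM of THBS1, LOXL2, COL17A1 and COL6A2 in the 12 libraries, with the mean and SD of each group as bars (n = 3) and library numbers as shapes. For THBS1 all 3 intact PRL libraries are above the intact untreated ones, whereas COL17A1 and COL6A2 are lowest in library 1 and highest in library 3 of every group. For COL17A1 the libraries numbered 1 (86.7 to 127 CPM) and 2 (110 to 371 CPM) overlap.

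The window of THBS1 in RefSeq (GRCh38.p14), from 250 bases before to 50 bases after the start of transcription, is shown because this is the gene with the lowest p of the list. Capitals mark every match to the motifs searched, on either strand.
THBS1, chr15:39580829-39581128, plus strand: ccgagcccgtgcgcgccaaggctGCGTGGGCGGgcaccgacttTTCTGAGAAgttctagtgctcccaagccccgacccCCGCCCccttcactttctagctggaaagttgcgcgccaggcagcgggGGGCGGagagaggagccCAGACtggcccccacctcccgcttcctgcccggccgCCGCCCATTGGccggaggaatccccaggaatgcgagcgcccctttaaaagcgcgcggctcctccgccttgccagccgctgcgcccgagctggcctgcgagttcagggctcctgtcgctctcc
The match to TTCNNNGAA, the spacing bound by STAT5, lies 207 to 199 bases before the start site. The other capitals are 4 matches to GGGCGG (GC box), 1 to CCAAT, 1 to CAGAC (SMAD box) and 1 to GCGTG, and neighbouring matches overlap. Of 36 windows of 29 listed genes, 2 held TTCNNNGAA (5.56%), those of THBS1 and COL7A1, against 7.66% of 35116 windows of all genes. TGANTCA, the AP-1 site, stood in windows of LAMB3 and LAMA3, also 5.56%, against 7.71% of all. GGGCGG occurred in 77.8% of the matrix windows against 45.0% of all, CAGAC in 55.6% against 45.3%, and CCAAT in 38.9% against 34.6%. ACGTG and GCGTG, the cores of hypoxia elements, were in 22.2% and 36.1% of matrix windows, against 21.4% and 36.5% of all. TATAAA was in 11.1% of matrix windows and 11.5% of all. These are matches of letters, and binding was not measured.

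The other matricellular and adhesive genes had averaged PRL effects closer to 0. FN1 had 6081, 11063 and 5211 CPM in deleted PRL and 5836, 12699.9 and 6342 CPM in deleted untreated libraries. In the intact cells it had 6257, 6686 and 7429 CPM with PRL and 4984, 10630.1 and 7683 CPM untreated. The highest values were those of library 2 in 3 of the 4 groups, and the groups overlapped throughout. The averaged PRL effect on FN1 was -0.17 ± 0.25 (edgeR adjusted p = 0.98). TNC, the gene of tenascin-C, an anti-adhesive glycoprotein of remodelled matrix, stood at 0.06 ± 0.24, and SPARC, a collagen-binding protein, at -0.03 ± 0.24.

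No laminin gene passed the test for PRL. All 5 had averaged PRL effects between -0.02 and 0.14 on the log2 scale, with a median of 0.03. LAMB3 encodes the beta-3 chain of laminin-332, the ligand of hemidesmosomes. It had 815, 1025 and 1402 CPM in deleted PRL and 889, 1034 and 1431 CPM in deleted untreated libraries. In the intact cells LAMB3 had 755, 993 and 1479 CPM with PRL, and 744, 970.4 and 1306 CPM untreated. Library 1 was lowest and library 3 highest in every group, so the groups overlapped almost fully. LAMA5, a laminin alpha chain widespread in epithelial basement membranes, gave 0.13 ± 0.16 and LAMC1, the gamma-1 chain shared by most laminins, -0.02 ± 0.13. LAMB1, the beta-1 chain, gave 0.03 ± 0.16.

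Of the linkers of the sheet none passed the test for PRL. AGRN, the heparan sulphate proteoglycan agrin, gave 0.15 ± 0.18, and HSPG2, the gene of perlecan, 0.13 ± 0.15. NID2, nidogen-2, which ties laminin to type IV collagen, gave 0.12 ± 0.38 and ranged from 14.6 to 48.6 CPM. NID1, its relative, was between 0.0857 and 0.465 CPM in the 12 libraries, with an averaged PRL effect of -0.22 ± 0.48. Its interaction of -1.84 ± 0.97 had an edgeR adjusted p of 1.

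Type IV collagen genes lie in head-to-head pairs. COL4A1 and COL4A2 encode the 2 chains of the common collagen IV trimer and are divergently transcribed on chromosome 13 with start sites 127 bases apart in RefSeq. COL4A6 and COL4A5, on chromosome X, have start sites 380 bases apart for the COL4A6 window shown here. COL4A6 has another window, which begins at base 108438373 and is not shown. The windows are shown because they are the shared upstream regions of genes whose levels were compared as pairs. Capitals mark the bases that both windows of a pair hold, 226 bases for COL4A1 and COL4A2 and 121 for COL4A6 and COL4A5, read on opposite strands.
COL4A1, chr13:110307108-110307407, minus strand: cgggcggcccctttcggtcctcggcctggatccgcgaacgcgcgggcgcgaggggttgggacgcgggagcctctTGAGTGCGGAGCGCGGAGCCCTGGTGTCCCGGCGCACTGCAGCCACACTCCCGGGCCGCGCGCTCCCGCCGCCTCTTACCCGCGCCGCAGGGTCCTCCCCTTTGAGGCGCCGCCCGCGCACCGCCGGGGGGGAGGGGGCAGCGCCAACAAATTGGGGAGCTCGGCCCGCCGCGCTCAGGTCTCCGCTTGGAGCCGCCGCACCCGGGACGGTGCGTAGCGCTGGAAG
COL4A2, chr13:110307034-110307333, plus strand: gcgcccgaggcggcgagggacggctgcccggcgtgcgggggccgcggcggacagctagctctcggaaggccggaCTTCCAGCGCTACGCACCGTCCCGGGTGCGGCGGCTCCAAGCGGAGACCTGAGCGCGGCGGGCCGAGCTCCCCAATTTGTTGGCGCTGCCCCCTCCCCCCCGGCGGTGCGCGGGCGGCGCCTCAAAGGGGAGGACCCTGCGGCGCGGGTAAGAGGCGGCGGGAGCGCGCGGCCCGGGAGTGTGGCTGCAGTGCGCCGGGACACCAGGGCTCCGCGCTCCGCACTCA
COL4A6, chrX:108439409-108439708, minus strand: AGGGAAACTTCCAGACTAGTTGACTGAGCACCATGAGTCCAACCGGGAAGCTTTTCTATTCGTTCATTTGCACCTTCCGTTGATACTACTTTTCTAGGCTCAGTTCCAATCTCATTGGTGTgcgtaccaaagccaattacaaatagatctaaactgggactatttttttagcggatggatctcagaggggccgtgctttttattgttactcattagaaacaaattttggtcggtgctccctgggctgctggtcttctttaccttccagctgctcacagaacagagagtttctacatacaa
COL4A5, chrX:108439588-108439887, plus strand: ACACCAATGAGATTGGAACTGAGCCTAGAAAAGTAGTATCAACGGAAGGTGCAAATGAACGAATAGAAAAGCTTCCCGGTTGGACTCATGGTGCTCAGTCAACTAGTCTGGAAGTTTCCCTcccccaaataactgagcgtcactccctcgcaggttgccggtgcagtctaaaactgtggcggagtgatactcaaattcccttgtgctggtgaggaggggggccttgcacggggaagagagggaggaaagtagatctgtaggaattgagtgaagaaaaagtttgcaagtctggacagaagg
The chromosome 13 windows are 76.7% (COL4A1) and 77.7% (COL4A2) G or C, and the chromosome X windows 43.7% (COL4A6) and 49.3% (COL4A5).

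COL4A1 had 129, 120.5 and 187 CPM in deleted PRL and 129, 120.0 and 200.4 CPM in deleted untreated libraries. In the intact cells it had 144, 167 and 163 CPM with PRL and 119, 106 and 166 CPM untreated. COL4A2 had 579, 498 and 909 CPM in deleted PRL and 586, 496 and 850.4 CPM in deleted untreated libraries. With the intact I-tail COL4A2 had 619.6, 835 and 838 CPM with PRL and 526, 532 and 740.2 CPM untreated. Both genes were highest in library 3 of both deleted groups, and both were higher in intact PRL library 2 than in intact untreated library 2. Per kilobase the ratio of COL4A2 to COL4A1 had a median of 3.42 and stayed between 3.16 and 3.93 over 12 libraries, a range of 0.32 on the log2 scale, while each gene ranged over 0.87 (COL4A2) and 0.91 (COL4A1).

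The averaged PRL effect was 0.19 ± 0.19 for COL4A2 and 0.12 ± 0.17 for COL4A1 (edgeR adjusted p = 0.98 for both). COL4A5 was 2.07 times COL4A6 per kilobase (range 1.72 to 2.36), and LAMC1 was 1.47 times LAMB1 (range 1.34 to 1.65). Wider ranges were found elsewhere. LAMB3 was 31.9 to 69.2 times LAMA3, the alpha-3 chain of laminin-332, per kilobase, and COL6A1 was 94.7 to 1197 times COL6A2. Both type VI collagen genes lie on chromosome 21, and the type VI trimer also needs an alpha-3 chain. COL6A3, the usual source of that chain, averaged 0.332 CPM per kilobase and COL6A1 59.9. Chain levels in RNA say nothing of trimers, which were not measured.

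Among the other basement membrane collagens, COL7A1 forms the anchoring fibrils and COL17A1 is the transmembrane collagen of hemidesmosomes. The averaged PRL effects were 0.10 ± 0.13 for COL7A1, -0.17 ± 0.44 for COL17A1 and -0.08 ± 0.29 for COL18A1, the source of endostatin. The 7 collagens outside the basement membrane group ran from -0.25 ± 0.23 for COL5A2 to 0.37 ± 0.35 for COL5A1, both genes of collagen V, which regulates the width of collagen I fibrils. COL12A1 and COL16A1, fibril-associated collagens, gave -0.07 and 0.03, and COL8A1, a short-chain collagen, -0.06. COL5A1 and LAMA3 were the genes besides THBS1 whose PRL library was above the untreated one in all 6 pairs within title runs. The differences were 0.04 to 0.61 and 0.0014 to 0.20 on the log2 scale (edgeR adjusted p = 0.98 for both averaged effects). Pairs were counted for the 35 genes only, so no share of all tested genes stands beside them.

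LOXL2, a lysyl oxidase that cross-links collagen IV, was the other gene whose intact PRL and intact untreated libraries did not overlap. It had 165, 159 and 195 CPM in deleted PRL and 170.0, 147 and 193 CPM in deleted untreated libraries. In the intact cells it had 178, 240.4 and 179.7 CPM with PRL and 169.7, 152 and 157 CPM untreated. The deleted groups overlapped, and the effect was 0.02 with the deleted and 0.32 ± 0.18 with the intact I-tail (edgeR adjusted p = 1 for both). Separation of this kind held for 0 of 35 matrix genes between deleted PRL and deleted untreated libraries, against 8.26% of all tested genes, and for 2 of 35 between intact PRL and intact untreated ones, against 5.49%. Between all 6 PRL and all 6 untreated libraries it held for 0 of 35, against 0.679% of all tested genes.

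Of the other enzymes, P4HA2, a prolyl 4-hydroxylase subunit needed for stable triple helices, gave 0.13 ± 0.11. PLOD2, a lysyl hydroxylase of collagen telopeptides, gave 0.04 ± 0.21, and LOX, the founding lysyl oxidase, -0.03 ± 0.12. Microfibril genes gave 0.20 ± 0.17 for FBN2, 0.08 ± 0.21 for FBLN1, 0.01 ± 0.14 for FBN1 and 0.00 ± 0.17 for EFEMP1. FBN1 and FBN2 encode fibrillins, FBLN1 fibulin-1 and EFEMP1 fibulin-3.

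**Figure D3:**
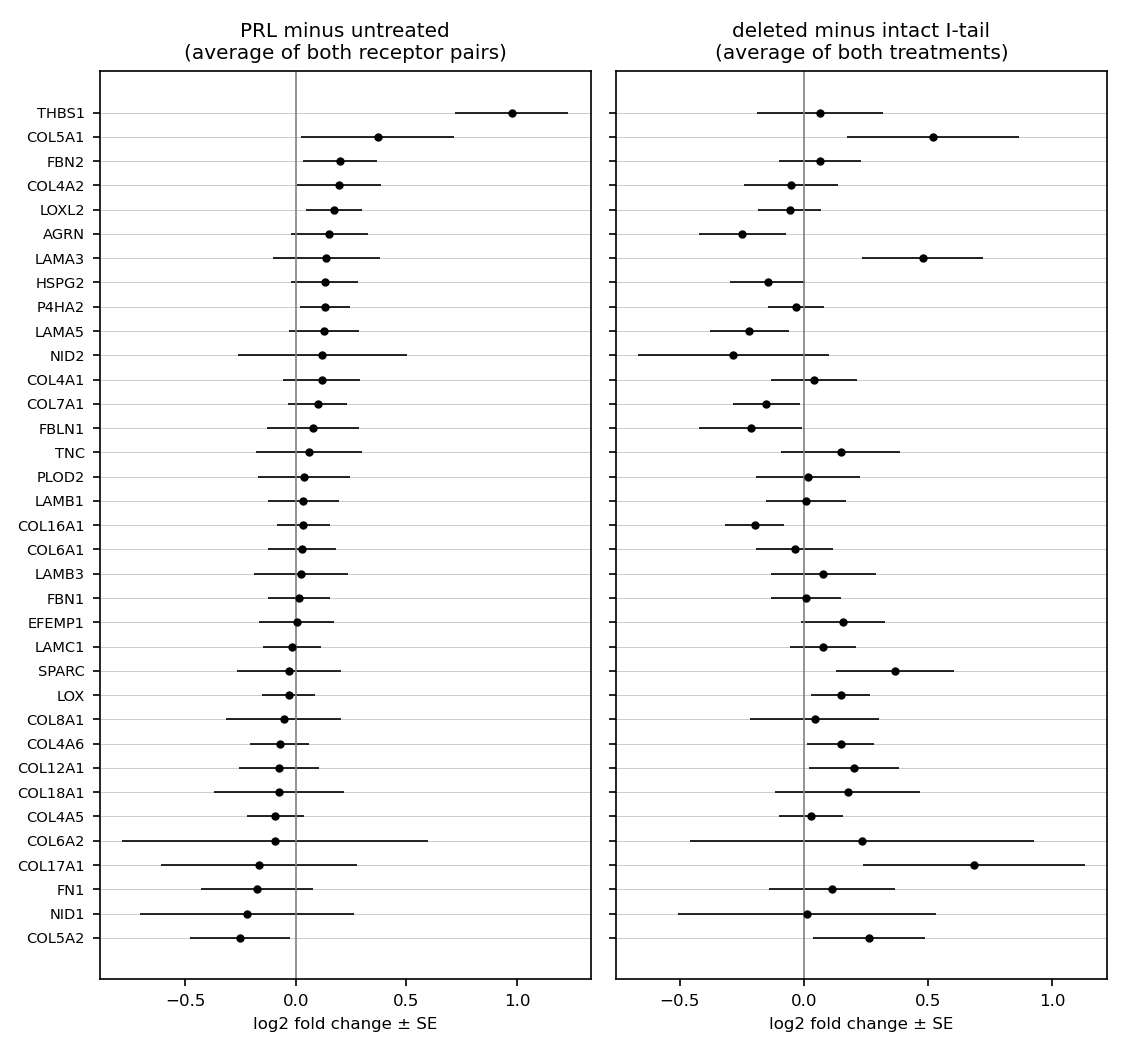
Log2 fold change and SE of each of the 35 genes for PRL minus untreated (left, averaged over receptor pairs) and deleted minus intact I-tail (right, averaged over treatments), in the order of the PRL effect. THBS1 stands apart on the left at 0.98, and the widest values on the right are COL17A1 at 0.68, COL5A1 at 0.52 and LAMA3 at 0.48.

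The loss of the I-tail was also without a called matrix gene. Averaged over both treatments edgeR called 0 of 35, against 0.00566% of all tested genes, DESeq2 0 against 0.0566% and limma-voom 0 against 0.0113%. Without a count filter edgeR called 1, COL17A1, against 0.0975% of all genes. In PRL-treated cells edgeR with the filter called 0 of 35 (0.00566% of all tested genes), and in untreated cells 0 of 35 (0.00566%). At an unadjusted p under 0.05 the counts were 0 for the average against 2.28% of all tested genes, 0 in PRL-treated cells against 1.62% and 0 in untreated cells against 0.837%. No gene separated all 6 deleted from all 6 intact libraries, against 0.187% of all tested genes. The median SE of the 35 averaged effects was again 0.18.

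LAMA3 (ENSG00000053747, GRCh38 chromosome 18, 23689443 to 23956222, plus strand in GENCODE 29) had the lowest p of the list for the averaged deletion effect. It stood at 72.4, 77.8 and 138 CPM in deleted PRL, against 62.9, 50.4 and 99.1 CPM in intact PRL libraries. Untreated, it stood at 66.1, 77.7 and 125 CPM in deleted and at 57.5, 43.9 and 86.3 CPM in intact libraries. Within a title run the deleted library was above the intact one of the same treatment in 6 of 6 pairs, by 0.20 to 0.82 on the log2 scale. Library 3 was high in every group, and the groups overlapped. The averaged effect was 0.48 ± 0.24 (edgeR adjusted p = 0.991), and it ranged from 0.28 to 0.62 as each library was left out.

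COL17A1 (ENSG00000065618, GRCh38 chromosome 10, 104031286 to 104085957, minus strand) had 109, 337 and 377 CPM in deleted PRL, against 100.0, 110.2 and 343 CPM in intact PRL libraries. Untreated, it had 127, 371 and 499 CPM in deleted and 86.7, 153 and 335 CPM in intact libraries. The averaged effect was 0.68 ± 0.45 (edgeR adjusted p = 0.991), and 6 of 6 pairs within runs were above 0, by 0.12 to 1.61. The widest of these differences came from run 2, where the deleted libraries had 337 and 371 CPM. The SE of COL17A1, too, includes differences between runs. The run held 73.2% of its sum of squares and the deletion 15.8%, and 9.84% lay in no term. COL6A2 also had 6 of 6 pairs above 0, by 0.04 to 0.78, at 0.209 to 3.47 CPM. Deletion pairs, too, were counted for the 35 genes only, without a share of all tested genes. Of the 8 basal epithelial markers, among them LAMB3, 7 had averaged deletion effects above 0, against 55.9% of all tested genes. Their median was 0.50 and none was called. Of the 5 markers of epithelium 2 were above 0, with a median of -0.25. The part of the basal markers in the values of LAMA3 and COL17A1 was not tested.

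The remaining members gave deletion effects from -0.28 ± 0.38 for NID2 to 0.52 ± 0.35 for COL5A1. Values below 0 included AGRN (-0.25 ± 0.18), LAMA5 (-0.22 ± 0.16), FBLN1 (-0.21 ± 0.21), COL16A1 (-0.20 ± 0.12) and HSPG2 (-0.15 ± 0.15). SPARC stood at 0.37 ± 0.24 at a level of 3.39 to 9.01 CPM. In PRL-treated cells COL7A1 had an effect of -0.38 ± 0.19 (edgeR adjusted p = 1), with means of 662 ± 39.3 CPM in deleted PRL and 858 ± 141 CPM in intact PRL libraries.

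The interaction, the PRL effect with the deleted I-tail minus that with the intact one, had 0 called genes by edgeR, DESeq2 and limma-voom, against 0% of all tested genes. At an unadjusted p under 0.05 edgeR gave 0 of 35, against 0.718% of all tested genes. Of the 35 values 30 were below 0, with a median of -0.15, against 52.7% and a median of -0.02 over all tested genes. COL7A1 stood at -0.45 ± 0.27, FBN2 at -0.43 ± 0.33, HSPG2 at -0.33 ± 0.30, COL4A1 at -0.32 ± 0.35 and COL4A2 at -0.31 ± 0.38. Without single libraries the number above 0 ran from 4 to 12. It was 12 without intact untreated library 1 (46.5% of all tested genes) or without deleted PRL library 1 (45.8%). The values share libraries and genes, so their number carries no test.

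PRL effects with the deleted I-tail were above 0 for 12 of 35 genes (median -0.03) and with the intact I-tail for 26 of 35 (median 0.11), against 47.2% and 48.4% of all tested genes. For the averages, 22 of 35 were above 0 for PRL (median 0.03) and 24 of 35 for the deletion (median 0.04), against 46.1% and 55.9% of all. These splits depend on scaling and on single libraries. With library size alone in place of TMM, the median of all genes was -0.12 for PRL and 0.11 for the deletion. Then 11 of 35 and 28 of 35 members were above 0, against 29.9% and 67.8% of all tested genes. PRL effects were then above 0 for 3 of 35 with the deleted I-tail, against 34.9% of all. With the intact I-tail they were above 0 for 17 of 35, against 31.7%, and the interaction for 6 of 35, against 54.4%. Deletion effects were above 0 for 18 of 35 in PRL-treated and 27 of 35 in untreated cells by TMM, against 52.1% and 55.0% of all. By library size they were above 0 for 21 and 30 of 35, against 65.1% and 63.8% of all. As single libraries were left out, the PRL effects above 0 numbered 10 to 21 with the deleted I-tail. The count was 21 without deleted PRL library 1 (44.5% of all tested genes) and 20 without deleted untreated library 3 (46.8%). With the intact I-tail the PRL effects above 0 numbered 18 to 30 and for the average 17 to 24. Both were lowest without intact untreated library 1, where 55.2% and 52.7% of all tested genes were above 0. Deletion effects above 0 numbered 18 to 21 for the average, 22 to 30 in untreated and 10 to 18 in PRL-treated cells. The last count was 10 without intact PRL library 2 (45.5% of all tested genes) and 11 without deleted PRL library 2 (51.1%).

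The title runs held more of the spread of these genes than PRL or the deletion did. The run accounted for a median of 64.6% of the sum of squares of log2 CPM of a matrix gene, against 44.2% over all tested genes, with 2 degrees of freedom where the other terms have 1. PRL accounted for a median of 1.79% (5.39% over all tested genes), the deletion for 2.29% (5.56%) and their interaction for 1.74% (1.64%). The run held over 50% of the spread in 24 of 35 genes, against 43.0% of all tested genes. This was 98.0% for PLOD2, 96.7% for COL6A2, 95.4% for LAMB3, 93.9% for LAMB1 and 93.8% for COL8A1. The run share was lowest in THBS1 and LOXL2, at 4.67% and 4.30%. PRL held 51.5% and 20.2% there, and 37.5% and 58.9% lay in no term. P4HA2 had 30.4% for the run and 25.9% for PRL, and NID1 24.0% for the run and 44.4% for the interaction. The shares of NID1 rest on only 3 to 22 counts in a library.

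**Figure D4:**
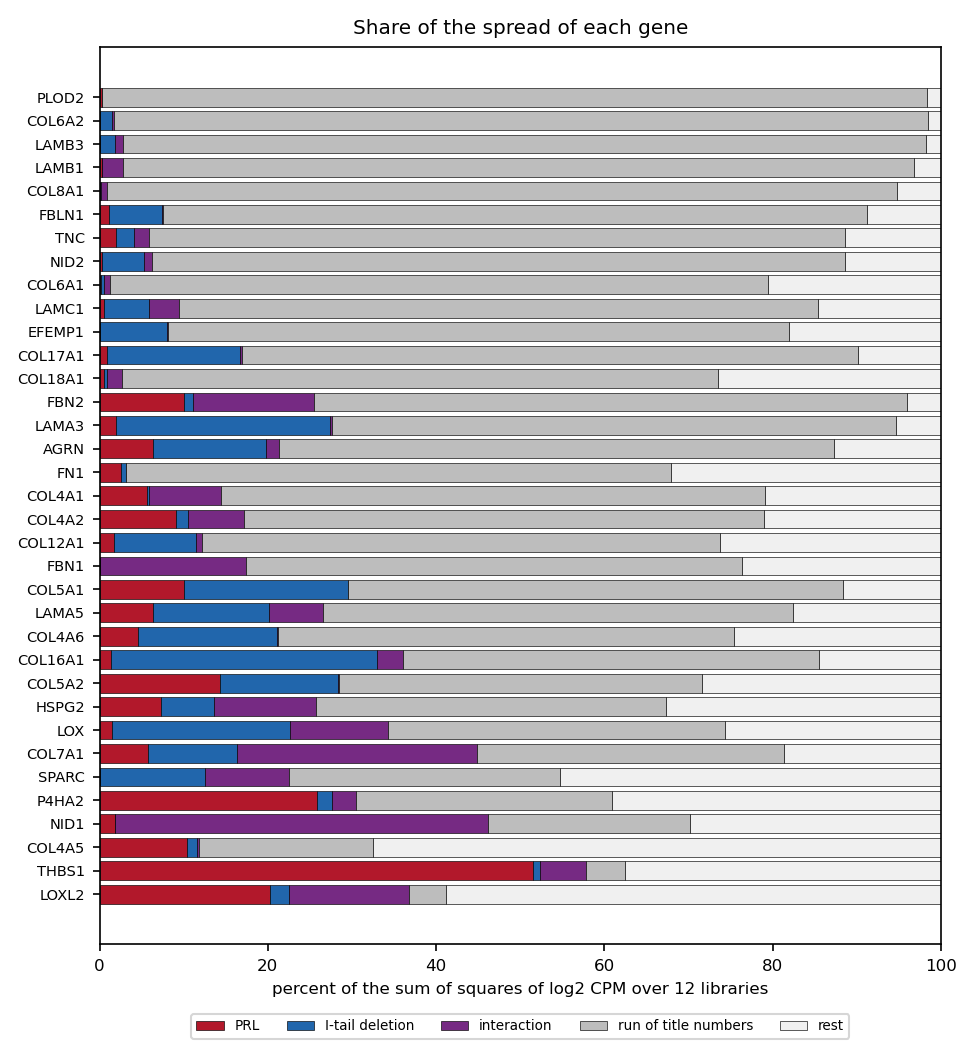
Share of the sum of squares of log2 CPM over 12 libraries that each term holds, 1 bar per gene from 0 to 100%, in the order of the share of the title run. The grey share of the run is over 50% in 24 of 35 genes, and PRL holds 51.5% in THBS1.

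The 4 libraries of run 1 lay wholly apart from the other 8 in 11 of 35 genes, against 26.4% of all tested genes. LAMB1, NID2 and PLOD2 were above and AGRN, COL18A1, COL6A1, COL6A2, EFEMP1, FBLN1, LAMA5 and LAMB3 below. Run 2 lay apart in 2 of 35 (3.56% of all tested genes), COL8A1 above at 31.5 to 38.4 CPM and PLOD2 below. Run 3 lay apart in 6 of 35 (1.43% of all tested genes), with COL6A2, LAMA3, LAMB3 and TNC above and LAMB1 and LAMC1 below. PLOD2 had 168 and 151 CPM in deleted PRL and deleted untreated and 154 and 160.2 CPM in intact PRL and intact untreated libraries of run 1, against 89.0 to 111 CPM in the other 8. COL6A2 had 0.209 to 0.392 CPM in run 1, 1.26 to 2.30 in run 2 and 3.003 to 3.47 CPM in run 3. The 7 basal markers without LAMB3 summed to 2374 to 3036 CPM in run 1, 7803 to 8813 in run 2 and 9188 to 14188 CPM in run 3, and their part in these differences was not tested.

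**Figure D5:**
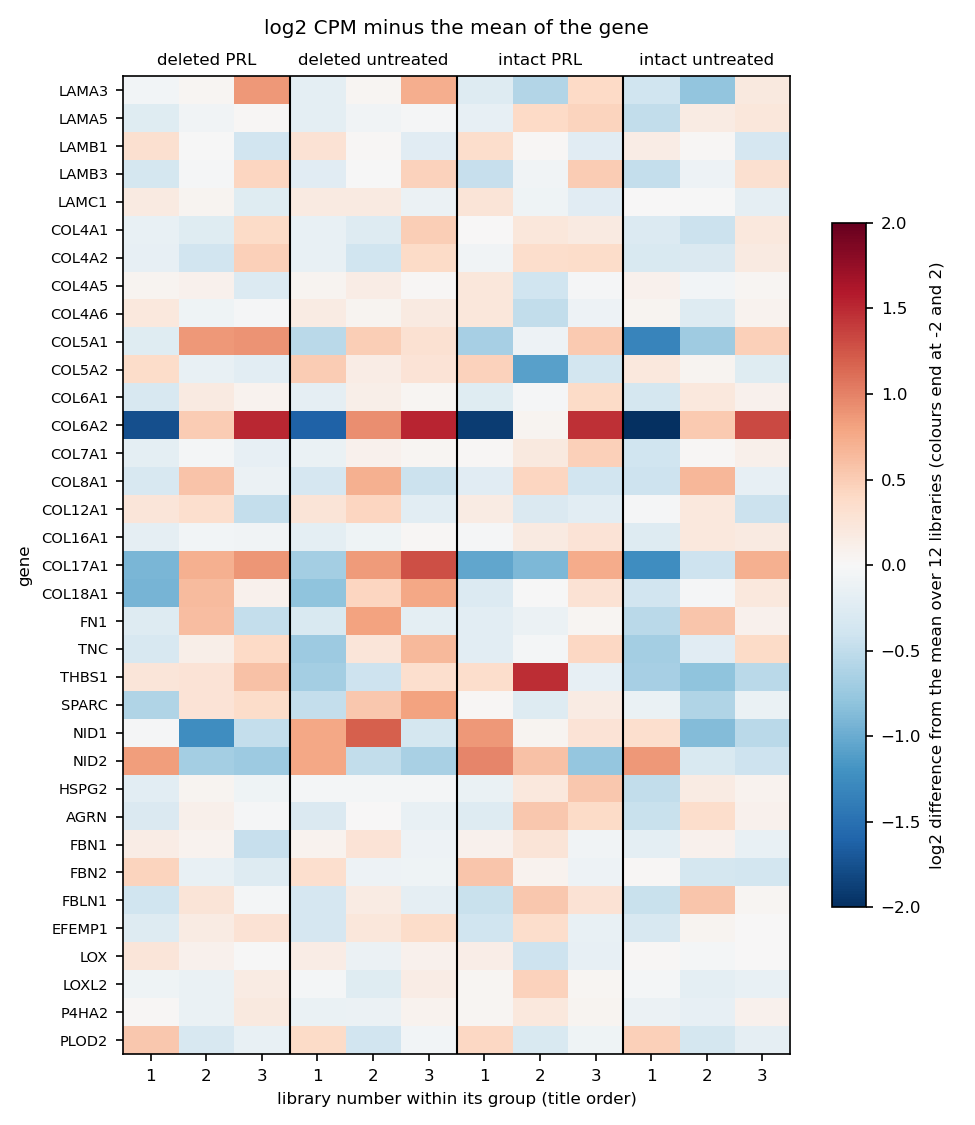
Log2 CPM of each gene minus its mean over 12 libraries, with genes in rows in list order and libraries in columns by group (red above, blue below, colours end at -2 and 2). The same column position looks alike across the 4 groups, and COL6A2 is lowest in library 1 and highest in library 3 of every group.

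In 14 of 35 genes an exon overlaps one of a gene on the opposite strand, and no source read here says whether counting used strand, so reads of such partners may not be separable. The partner was itself tested in 8. COL18A1 (1.96 to 6.38 CPM) overlaps SLC19A1 at 7.02 to 25.4 CPM, and NID2 overlaps RTRAF at 37.8 to 68.9 CPM. The partners of THBS1, THBS1-AS1 and FSIP1, were at 0 and at most 0.325 CPM.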

How the data were processed

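PolyA RNA was sequenced and, per the submitters' processing notes, FastQC, STAR 2.7.9a, featureCounts of Subread and GRCh38 were used. The authors deposited 1 table of raw counts, with Ensembl genes in lines and libraries in columns. For annotation release, strand setting and filters, nothing is given in the sources used here. The table has 62703 entries, of which 1 without values was left out. Groups came from the genotype and treatment labels, and library numbers follow the titles. The labels do not say that these numbers pair samples, and pairs within title runs are given as a description. These pairs were counted for the 35 genes only. Counts of replicate libraries differed beyond sampling noise (chi-square per degree of freedom 57.2 to 240).

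Analysis used R 4.3.3 and edgeR 4.0.16. filterByExpr left 17677 genes. After TMM scaling, a model with 1 mean per group was fitted with robust quasi-likelihood estimation (biological coefficient of variation 0.303, with 8 degrees of freedom left). The quasi-likelihood F test was applied to 7 contrasts, with Benjamini-Hochberg adjustment over all these genes and calls at 0.05. The log2 fold change over the square root of F served as SE. Log2 CPM use a prior count of 2. CPM per kilobase use the exon union of GENCODE 29, which may differ from the annotation of the counting. Promoter windows came from RefSeq (GRCh38.p14) and were found for 29 genes. COL5A2, COL6A1, COL8A1, AGRN, EFEMP1 and LOXL2 are named without one.

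The 35 genes and the lists set beside them were chosen with earlier results of these data known. Named besides them were, in each list set beside them, genes called in any contrast or otherwise the 3 with the smallest p for averaged PRL and the 2 for the averaged deletion, and overlapping genes. Chains that complete a trimer, markers and TGFBI were named as well, TGFBI after its values were seen. As alternatives, scaling was by RLE, upper quartile or library size, and others were leaving out the count filter, at least 1 CPM in 3 libraries, DESeq2 1.42.0, limma-voom (limma 3.58.1), no robust estimation, the compared groups only, a term for title runs, 1 surrogate variable (sva 3.50.0), chain ratios of counts in place of length-scaled levels, and each of 12 libraries left out. The method was tested on simulated counts with known changes.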

Additional observations from a re-analysis of the deposited data

How the results depend on the processing

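Scaling, filter, tool, dispersion, added terms and left-out libraries were varied 1 at a time. Under RLE, upper-quartile and library-size scaling, the stricter filter, limma-voom, dispersions without robust estimation, the fit of the compared groups only, the term for title runs, 1 surrogate variable and each left-out library, 0 of the 35 genes were called in any contrast that setting could give. Without a count filter 1 gene, THBS1, was called for the averaged PRL effect, against 0.366% of all genes. THBS1 was also the 1 gene called for PRL with the intact I-tail, against 0.136%. Its edgeR adjusted p were 1.09e-06 and 4.06e-06, at SEs of 0.16 and 0.23, against SEs of 0.26 and 0.36 with the filter. For the averaged deletion 1 gene, COL17A1, was called, against 0.0975%. DESeq2 called 1 for averaged PRL, THBS1, against 0.487% of all tested genes, and 0 in the other contrasts. The cause was not tested. With 1 surrogate variable the deletion effect on FBLN1 was 0.0159 in place of -0.21, and the cause was not tested. Over 22 settings, 1344 of 1538 values of averaged PRL and averaged deletion effects of single genes kept their direction and their side of the threshold, and 191 changed sign, 1 of them by over 1 SE.

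Leaving out 1 library at a time moved the averaged PRL effect on THBS1 between 0.68 and 1.16, with edgeR adjusted p from 0.166 to 0.973. Ratios of counts in place of length-scaled levels moved the median log2 ratio to 2.16 for COL4A2 over COL4A1, to 1.40 for COL4A5 over COL4A6 and to 3.73 for LAMB3 over LAMA3.

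The labels give groups no shared replicate numbers, so the term for title runs, each with 1 library of every group, was the pairing fitted. It called 0 of the 35 genes, and 198 of all tested genes for averaged PRL against 21 in the fit without it. The stricter filter dropped NID1 and left 34 genes, and the fit of the compared groups only gives no average or interaction. With 3 libraries a group the median SE was 0.18 for the averages and 0.36 for the interaction. The averaged effect of 0.98 ± 0.26, that of THBS1, was not called by edgeR with the count filter and was called without it. NID1, COL6A2 and COL5A1 rest on few counts.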

Other observations

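Genes of the wider matrix that are not in the list of 35 were read in lists of laminins and other basement membrane genes, other collagens, matrix glycoproteins and proteoglycans, collagen-processing genes, matrix receptors and hypoxia targets. edgeR called 0 of their tested members in any of the 7 contrasts, beside 0.119% of all tested genes for averaged PRL, where 3.81% of all had an unadjusted p under 0.05. The averaged PRL effect had a median log2 fold change of -0.03 over 18 basement membrane genes, of which 0 had an unadjusted p under 0.05, and of -0.15 over 16 other collagens, of which 1 did. It was 0.02 over 38 glycoproteins and proteoglycans (1 gene), 0.01 over 29 collagen-processing genes (2 genes), 0.09 over 23 receptors (1 gene) and 0.03 over 20 hypoxia targets (3 genes), beside -0.02 over all tested genes. CCN2, a matricellular growth factor modulator, stood at 1.56 ± 0.42 (edgeR adjusted p = 0.427) with 6.37 to 99.6 CPM over the 12 libraries. TGM2, which cross-links matrix proteins, stood at 1.79 ± 0.54 (edgeR adjusted p = 0.639). COL1A1, the alpha-1 chain of collagen I, stood at 0.51 ± 0.22, ITGA5, the fibronectin receptor alpha-5 integrin, at 0.37 ± 0.16 and DDIT4, a hypoxia and stress target that restrains mTOR, at -0.53 ± 0.12 (edgeR adjusted p = 0.192).

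For the averaged deletion, PLOD3, a lysyl hydroxylase, stood at -0.37 ± 0.16, ECM1, a secreted glycoprotein, at -0.34 ± 0.12, GPC1, a cell-surface heparan sulphate proteoglycan, at -0.45 ± 0.18 and NDRG1, a hypoxia target, at 0.48 ± 0.17 (edgeR adjusted p = 0.991 for each). COL1A2, the partner chain of COL1A1, stood at 0.0197 CPM per kilobase, against 15.0 for COL1A1. TGFBI, a secreted adhesion protein, averaged 1289 CPM per kilobase, above each of the 35 genes.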
